A study of Mus musculus with 8 samples.

Results

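LaminB1-DamID lists of mouse 3T3-L1 cells were searched for DNA that left the nuclear periphery in normal fat cell differentiation but was found there in fat cells depleted of Tmem120a, with or without depletion of its paralog Tmem120b. The starting set was the 2021 deposited regions that lay in lamina associated domains (LADs) of preadipocytes and outside LADs of adipocytes, called released here. A released region was counted as returned when LADs of the Tmem120a knockdown covered at least 50% of it and LADs of the double knockdown did so too. This held for 487 regions, or 24.1% of the 2021, and these regions are the subject throughout. Of the other 1534 released regions, 234 met the threshold in the Tmem120a knockdown only, 457 in the double knockdown only and 843 in neither. The word returned describes the lists alone. Knockdown cells were profiled at day 9 of differentiation only, so a region that left the periphery and came back and a region that never left cannot be told apart. The study also cites earlier work in which Tmem120a knockdown reduced 3T3-L1 adipogenesis, and the double knockdown reduced it further. The lists do not give the share of differentiated cells. Less complete differentiation of the knockdown cultures therefore cannot be told apart from a change within adipocytes.

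3T3-L1 is an established mouse fibroblast line that turns into adipocytes under an inducing cocktail. The study profiled 4 conditions, each with 1 LaminB1-Dam and 1 Dam library, 8 libraries in all. Preadipocytes were undifferentiated (day 0) and are labelled untreated, with no shRNA named. The other 3 conditions were adipocytes at day 9, all of them stable shRNA lines: a control labelled as carrying a non-target shRNA (the text of the study names an empty vector as the control for protein depletion), a line with shRNA to Tmem120a (the single or Tmem120a knockdown), and a line with shRNA to Tmem120a and Tmem120b (the double knockdown). By these labels preadipocytes and adipocytes also differed in the shRNA. All cells received the Dam or LaminB1-Dam lentivirus. Preadipocytes received it undifferentiated and adipocytes late in differentiation. The results of the study give a shorter time from virus to DNA extraction in preadipocytes, whereas its methods give the same time for both. Since no condition had a second pair of libraries, no value below has a spread between cultures and no test of a difference between conditions is possible. Intervals of shares are 95% Wilson intervals over regions, or over genes where a share of transcription starts is given. They hold counting error only. Neighbouring regions are not independent, and neither are genes that share a region.

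The nuclear lamina is a protein mesh under the inner nuclear membrane, and the large genome stretches that contact it are mostly poor in genes and silent. Differentiation releases some loci from this contact and recruits others. Some transmembrane proteins of the nuclear envelope direct such repositioning in a tissue-specific way. The study attributes this role in fat to the paralogs Tmem120a and Tmem120b, and reports Tmem120a in the endoplasmic reticulum as well. In DamID a bacterial adenine methylase (Dam) is fused to LaminB1 and methylates GATC wherever the DNA comes near, and free Dam serves as the accessibility control. The enzyme DpnI then cuts methylated GATC, so fragments between GATC sites are the unit in which contact is read. With few exceptions, the border of a LAD is therefore a GATC site.

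The borders of a returned region can therefore be shown as sequence. Jazf1, a zinc finger cofactor linked to glucose and lipid metabolism, is among the genes the study names as released, and its region was chosen for display after its values had been seen. It was the 11th longest returned region (chr6:52954170-53139729, mm9, 185.6 kb) and was a whole LAD of preadipocytes with no overlap in adipocytes. Each line gives 40 bases of the forward strand of the reference around a border, with the GATC at the border in capitals. The first pair are the preadipocyte borders, the next pair bound the Tmem120a knockdown LAD in the region, and the last 4 bound the 2 LADs of the double knockdown.
Preadipocytes, first border, chr6:52954150-52954189: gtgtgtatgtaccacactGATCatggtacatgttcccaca
Preadipocytes, last border, chr6:53139709-53139748: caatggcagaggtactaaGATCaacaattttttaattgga
Tmem120a knockdown, first border, chr6:52957902-52957941: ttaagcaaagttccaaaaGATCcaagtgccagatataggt
Tmem120a knockdown, last border, chr6:53052111-53052150: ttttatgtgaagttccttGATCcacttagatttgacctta
Double knockdown, first border, chr6:52940748-52940787: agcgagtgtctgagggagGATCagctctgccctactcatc
Double knockdown, last border, chr6:53011370-53011409: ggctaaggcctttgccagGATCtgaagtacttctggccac
Double knockdown, first border of the next LAD, chr6:53026441-53026480: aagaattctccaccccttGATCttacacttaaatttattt
Double knockdown, last border of the next LAD, chr6:53068274-53068313: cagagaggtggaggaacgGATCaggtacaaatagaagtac
All 8 borders lay at GATC, and no knockdown border fell on a preadipocyte border. The Tmem120a knockdown LAD began 3.75 kb inside the region and stopped 87.6 kb before its end, covering 50.8% of it. The double knockdown LADs began 13.4 kb outside the region and stopped 71.4 kb before its end, covering 53.4%. Both knockdowns thus held the same side of the region, and the far side lay outside LADs in both lists as it did in adipocytes. The 53.4% in the double knockdown was split by a gap that held the Jazf1 transcription start.

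The start of Jazf1 lay in the Tmem120a knockdown LAD but in neither of the double knockdown LADs. Rbp4, which encodes a retinol carrier secreted by liver and fat, is the lipid and adipokine gene whose start was in LADs of preadipocytes and both knockdowns and outside LADs of adipocytes. The promoters of both genes are shown to set the sites that DamID can read beside these states. Each is 300 bases of the reference (NCBIM37, the assembly of mm9) on the gene's strand, from 250 bases before the start to 50 after it, with GATC in capitals.
Jazf1, chr6:53018576-53018875, minus strand: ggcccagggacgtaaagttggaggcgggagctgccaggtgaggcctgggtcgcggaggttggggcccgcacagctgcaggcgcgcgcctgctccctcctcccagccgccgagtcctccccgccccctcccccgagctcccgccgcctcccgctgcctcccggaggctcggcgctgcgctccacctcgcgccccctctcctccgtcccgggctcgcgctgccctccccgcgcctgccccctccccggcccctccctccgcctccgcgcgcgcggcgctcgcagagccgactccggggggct
Rbp4, chr19:38199762-38200061, minus strand: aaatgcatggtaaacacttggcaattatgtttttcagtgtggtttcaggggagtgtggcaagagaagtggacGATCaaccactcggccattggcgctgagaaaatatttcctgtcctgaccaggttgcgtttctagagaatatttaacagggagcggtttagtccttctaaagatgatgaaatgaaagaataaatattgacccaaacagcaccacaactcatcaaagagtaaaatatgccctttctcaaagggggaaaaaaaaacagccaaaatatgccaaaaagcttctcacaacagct
The Jazf1 promoter held no GATC, 38 CG dinucleotides and 79.7% G or C. The Rbp4 promoter held 1 GATC, 5 CG dinucleotides and 40.7% G or C. The word GATC, which reads the same on both strands, was found in 46.8% of the 171 promoters whose start lay in a returned region and in 46.1% of the promoters of all 22350 protein-coding genes. The median promoter in returned regions held 7 CG dinucleotides and 51.7% G or C, against 11 and 55.3% over all genes.

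Returned regions met 8 of 1576 annotated microRNA genes (0.508%, beside 1.41% of protein-coding genes), and 2 of the 8 had microRNA gene names. Mir340 (chr11:49883204-49883301, plus strand), which the study also singled out on these samples and which is therefore no independent evidence, lies in the gene Rnf130, and LADs of preadipocytes and of each knockdown covered its whole body, whereas it lay outside adipocyte LADs. Its mature strands, given by RefSeq and found in the reference at this gene, are shown with bases 2 to 8, the seed that pairs with target mRNAs, in capitals.
mmu-miR-340-5p: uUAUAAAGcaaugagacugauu
mmu-miR-340-3p: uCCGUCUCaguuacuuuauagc
Mir692-2b on chromosome 13 had the same states in the 4 lists. The region with Mir340 measured 28.5 kb, and all of it lay in LADs in each knockdown.

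The regions were selected on their shares in the 2 knockdown lists, which are given first as a description, with nothing inferred from them. Every returned region lay wholly in preadipocyte LADs and had none of its length in adipocyte LADs. The share of a region in Tmem120a knockdown LADs had a median of 96.5%, and the share in double knockdown LADs a median of 100%. In the Tmem120a knockdown 231 regions lay wholly in LADs, in the double knockdown 257, and in each of them 163. Summed over all 25.3 Mb of returned DNA, 81.6% was in LADs of the Tmem120a knockdown, 84.4% in LADs of the double knockdown and 71.6% in both at once. The double knockdown held the larger share in 186 regions and the Tmem120a knockdown in 138, and the shares were equal in the 163 regions held whole by each. The Tmem120a knockdown list was met as 1 unbroken piece by 435 regions (89.3%), and the double knockdown list by 424 (87.1%). Regions past the threshold in 1 list only had similar values in that list, 90.2% for the Tmem120a and 85.3% for the double knockdown.

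**Figure D1:**
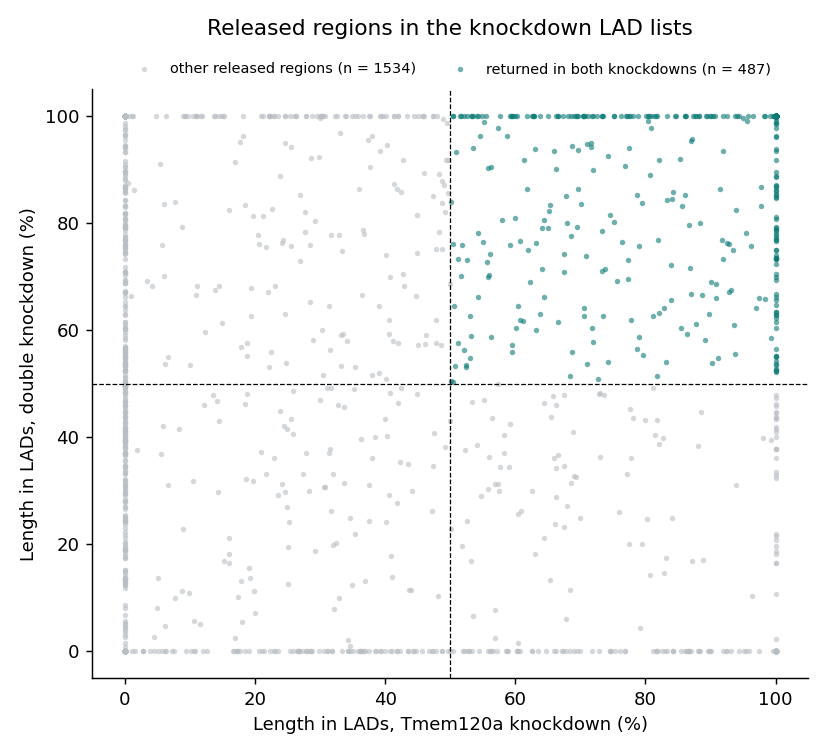
Each point is a released region, placed by the percent of its length in LADs of the Tmem120a knockdown (x axis) and of the double knockdown (y axis). Dashed lines mark the 50% threshold, the 487 returned regions fill the upper right corner, and 163 of them sit at 100% in each list.

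The threshold cut through a continuous range. The returned regions with the lowest shares in the Tmem120a knockdown had 50.12% (chr2:146662924-146691144) and 50.13% (chr14:72717177-72744084), and the nearest regions left out by this list alone, having passed in the double knockdown, had 49.9% and 49.7%. In the double knockdown the lowest shares were 50.36% (chr7:121796275-121818520) and 50.58% (the same chromosome 14 region), and the nearest regions that had passed in the Tmem120a knockdown but not here had 49.98% and 49.3%. Among regions that had passed in the other list, between 50% and 60% of the length lay 57 regions in the Tmem120a knockdown, against 53 left out at 40% to 50%. In the double knockdown these counts were 40 and 35.

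Where a returned region sat relative to stable LADs was read from the preadipocyte and adipocyte lists, which the knockdown threshold did not use. Of the 487 regions, 355 (72.9%, interval 68.8 to 76.7) touched a stable stretch, one held in LADs of preadipocytes and of adipocytes alike. Among the other 1534 released regions 715 (46.6%, 44.1 to 49.1) did so. Regions in LADs of 1 knockdown only lay between, 58.5% where this was the single and 56.02% where it was the double knockdown, and regions in neither had 38.2%. The share was higher in returned than in other released regions on 19 of 20 chromosomes. The exception was chromosome 13, with 12 of 29 returned regions against 34 of 75 others. On chromosome X all 17 returned regions touched such a stretch, against 36 of 78 others.

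Contact on both flanks was also more frequent. An adipocyte opening inside a LAD, with stable LAD on both sides, was found for 127 returned regions (26.1%, 22.4 to 30.2) and for 130 other released regions (8.47%, 7.18 to 9.97). A further 228 returned regions (46.8%) were an edge of a LAD that had drawn back on 1 side. The remaining 132 (27.1%) were whole preadipocyte LADs with no counterpart in adipocytes, a kind that made up 53.4% of the other released regions. These 132 lay a median of 187 kb from the nearest stable stretch, against 284 kb for the whole LADs among the other released regions. The preadipocyte LAD around a returned region had a median length of 185.5 kb, against 82.5 kb around other released regions. Among these it was 99.0 kb for the Tmem120a knockdown only, 115.8 kb for the double knockdown only and 66.5 kb for neither. This length is tied to the flanks, since a region that is a whole LAD has no LAD beyond it.

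**Figure D2:**
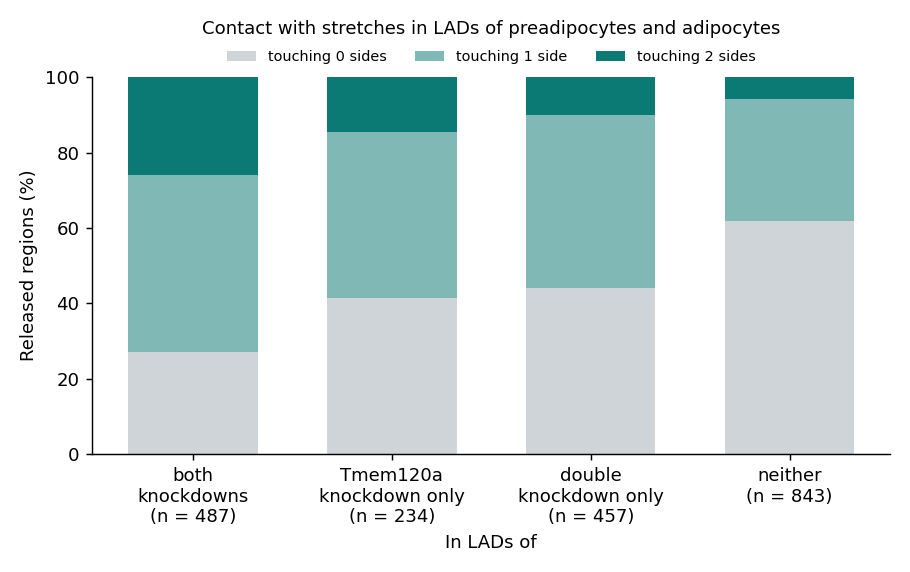
Stacked bars give the percent of released regions that touched a stretch in LADs of both preadipocytes and adipocytes on 0, 1 or 2 sides (y axis), for the 4 classes of knockdown state (x axis, with the number of regions). Regions returned in both knockdowns touched such a stretch in 72.9% of cases and on 2 sides in 26.1%, against 38.2% and 5.93% for regions in LADs of neither knockdown.

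Read the other way, the share of released regions that returned rose with the number of stable flanks. It was 132 of 951 (13.9%) with none, 228 of 813 (28.04%) with 1 and 127 of 257 (49.4%) with 2, beside 24.1% over all. In the single lists the same order held, with 24.1%, 40.7% and 62.6% in LADs of the Tmem120a knockdown (35.7% over all released regions) and 35.0%, 53.9% and 67.3% in LADs of the double knockdown (46.7% over all). Length moved with this pattern. Below 20 kb the returned shares were 5.50% (2.55 to 11.5), 25.4% (20.2 to 31.5) and 59.0% (47.9 to 69.2) for 0, 1 and 2 flanks, and from 20 to 40 kb they were 9.58%, 23.6% and 54.8%. From 40 to 80 kb they were 19.7%, 32.2% and 38.0%, and the intervals for 1 flank (26.2 to 38.9) and 2 flanks (27.6 to 49.7) overlapped. At 80 kb and above the shares were 15.6%, 35.9% and 33.3%, the last from 24 regions. The deposited LADs were all longer than 15 kb, so a short region without a stable flank could be covered only by a knockdown LAD that reached beyond it or nearly matched it. The part of this limit in the pattern was not tested.

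Borders were read in the knockdown lists, the lists on which the regions were selected, so a high share of crossed borders follows in part from the rule and is given as a description. Returned regions had 482 inner borders, where the adipocyte LAD ended. An unbroken knockdown LAD ran across 424 of these (88.0%) in the Tmem120a knockdown, across 442 (91.7%) in the double knockdown and across 391 (81.1%) in each. Regions past the threshold in 1 list only had 84.8% and 86.8% of their inner borders crossed in that list, the Tmem120a and the double knockdown respectively. Over all released regions the shares were 56.8% and 65.8%, and for regions in neither list 22.8% and 30.4%. At the 492 outer borders, where the preadipocyte LAD had ended, few knockdown LADs stopped on the same base, although a Tmem120a knockdown border lay within 10 kb of 218 (44.3%) and a double knockdown border within 10 kb of 186 (37.8%). In the Tmem120a knockdown the LAD ran past the old border in 286 cases (58.1%), by a median of 19.6 kb, and stopped short in 193, by a median of 9.20 kb. In the double knockdown it ran past in 318 cases (64.6%), by a median of 25.8 kb, and stopped short in 165, by a median of 9.69 kb. Both lists ran past at 213 borders and both stopped short at 90, whereas at 71 only the Tmem120a knockdown ran past and the double stopped short, and at 102 the reverse was found. Over all released regions the knockdown LADs ran past 20.7% and 31.8% of outer borders, and for regions in neither list 4.87% and 8.90%. Running past requires the outer end of a region to be covered, which the threshold favours, and how far a LAD could stop short was bounded by it.

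Coverage within a region is the measure the threshold used, and any unbroken piece that covers at least 50% of a region includes its middle, so higher coverage in the middle than at a free end is fixed by the rule. Along the 228 regions at a LAD edge, coverage fell toward the old outer border. In the Tmem120a knockdown it averaged 88.5% of the part next to the stable LAD when a region was divided into 10 equal parts, 95.3% of the fifth part and 60.9% of the outermost part. The double knockdown gave 92.1%, 96.7% and 67.6%. In the 127 openings inside a LAD coverage stayed between 88.8% and 96.5% in the single and between 90.8% and 94.7% in the double knockdown. In the 132 whole LADs it was lower at both ends, with 65.9% in the first part and 91.9% in the fifth in the Tmem120a knockdown, and 72.8% and 89.1% in the double knockdown.

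**Figure D3:**
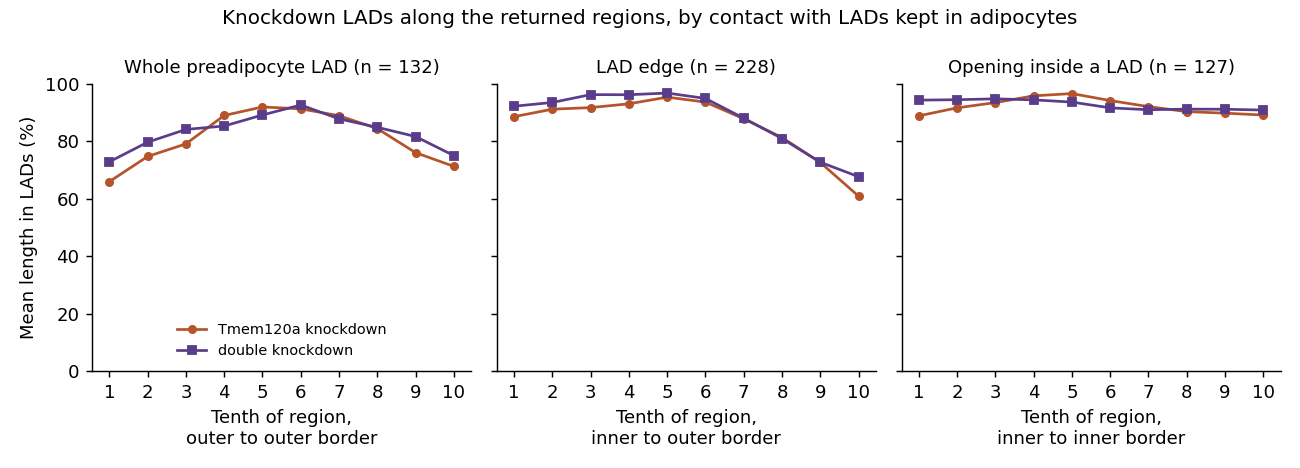
Each returned region was divided into 10 equal parts, and the mean percent of each part in knockdown LADs (y axis) is plotted against its position (x axis) for whole preadipocyte LADs, LAD edges and openings inside a LAD. Points are means over the number of regions given above each panel, and at LAD edges both lines fell toward the outer border, to 60.9% in the single and 67.6% in the double knockdown.

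Identical borders in 3 lists were an exception. At 6 of the 492 outer borders the preadipocyte, Tmem120a knockdown and double knockdown lists ended on the same base. For 5 of them that base lay beside a run of unknown bases in the reference, where no fragment can be read. Of all 974 borders of returned regions, 968 (99.4%) lay at GATC in the reference.

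In length, base composition and gene content the returned regions were much like the other released regions. Their median length was 39.2 kb (quartiles 21.3 and 63.3, range 8.06 to 501), against 36.7 kb. By length class the returned share was 26.5% below 20 kb, 20.9% from 20 to 40 kb, 26.1% from 40 to 80 kb, 23.4% from 80 to 160 kb and 25.9% above. Median G and C content was 42.4% against 42.0%, higher in returned regions on 13 of 20 chromosomes. GATC sites numbered a median of 2.49 per kb against 2.48, so the density at which DamID samples the DNA was close in the 2 sets. Protein-coding genes were met by 277 returned regions (56.9%, 52.4 to 61.2) and by 56.8% of the others. A transcription start lay in 27.9% (24.1 to 32.1) against 29.9%, and 35.1% against 36.0% met no annotated gene of any type. Starts of protein-coding genes numbered 6.75 per Mb in returned regions, 7.88 per Mb in the other released regions and 8.47 per Mb over the genome.

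Returned regions were found on all 20 chromosomes that held released regions. The returned share was highest on chromosome 10 (49 of 150, 32.7%), chromosome 7 (28 of 88, 31.8%) and chromosome 8 (33 of 105, 31.4%). It was lowest on chromosome 15 (9 of 83, 10.8%) and chromosome 4 (15 of 128, 11.7%). On chromosome X it was 17.9% (17 of 95). Chromosome 15 nevertheless carried the longest returned region.

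**Figure D4:**
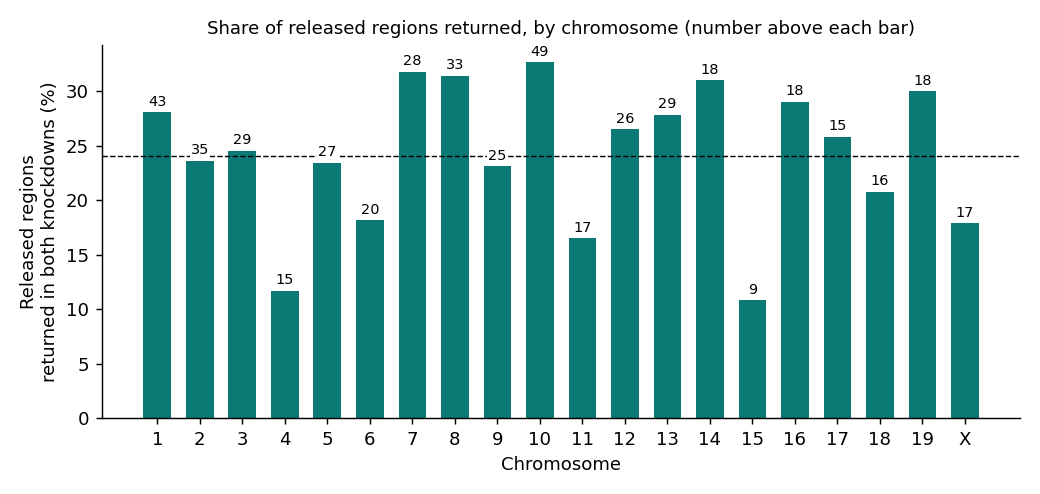
Bars give the percent of released regions on each chromosome that were returned in both knockdowns (y axis), with the number of returned regions above each bar. The dashed line is the 24.1% over all chromosomes, and the bars run from 10.8% on chromosome 15 to 32.7% on chromosome 10.

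The 10 longest returned regions measured 209 to 501 kb. Region 1 (chr15:93568089-94069106) and region 2 (chr2:73856770-74299781) met no protein-coding gene, and neither did region 8 (chr11:63049824-63302514, 253 kb). Region 2 was a whole preadipocyte LAD, and was met by a single LAD of 420 kb in the single and 515 kb in the double knockdown. Region 8 was the one among the 10 held whole by the Tmem120a knockdown, with 84.6% in the double knockdown.

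Region 3 (chr2:145093276-145474774, 381 kb) lay almost wholly within Slc24a3, a sodium, potassium and calcium exchanger (ENSMUSG00000063873.3). Of the body of this gene 100% was in LADs in preadipocytes, 9.01% in adipocytes, 85.9% in the single and 92.6% in the double knockdown. Region 4 (chr9:68683802-68992986, 309 kb) lay in Rora, which encodes an orphan nuclear receptor, and 70.9% and 73.9% of the region was in LADs of the single and the double knockdown.

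Region 6 (chr19:30572925-30830650, 258 kb) met Dkk1, a secreted Wnt antagonist, and an end of Prkg1, a cGMP-dependent protein kinase. It was an adipocyte opening with stable LAD on both sides, and it was filled in pieces, 3 LADs in the Tmem120a knockdown (55.8% of its length) and 4 in the double knockdown (70.0%). Dkk1 (ENSMUSG00000024868.8) fell between the pieces in both. Its body was 100% in LADs in preadipocytes and 0% in adipocytes and in each knockdown. Region 9 (chr10:20264775-20502359, 238 kb) overlapped Pde7b, a cAMP phosphodiesterase, whose body was 94.3% in LADs in preadipocytes, 5.06% in adipocytes, 86.1% in the single and 97.4% in the double knockdown. Region 10 (chr19:59076654-59285328, 209 kb) met Vax1, a homeobox factor of the ventral forebrain and eye, and 4930506M07Rik. The Vax1 body was 100% in LADs in preadipocytes, 0% in adipocytes and the double knockdown, and 75.7% in the Tmem120a knockdown. Region 7 (chr12:35402348-35658423, 256 kb) held the small gene 4921508M14Rik, which lay in a LAD in preadipocytes and the double knockdown and outside LADs in the other 2 lists. A returned region thus did not carry every gene in it into LADs.

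**Figure D5:**
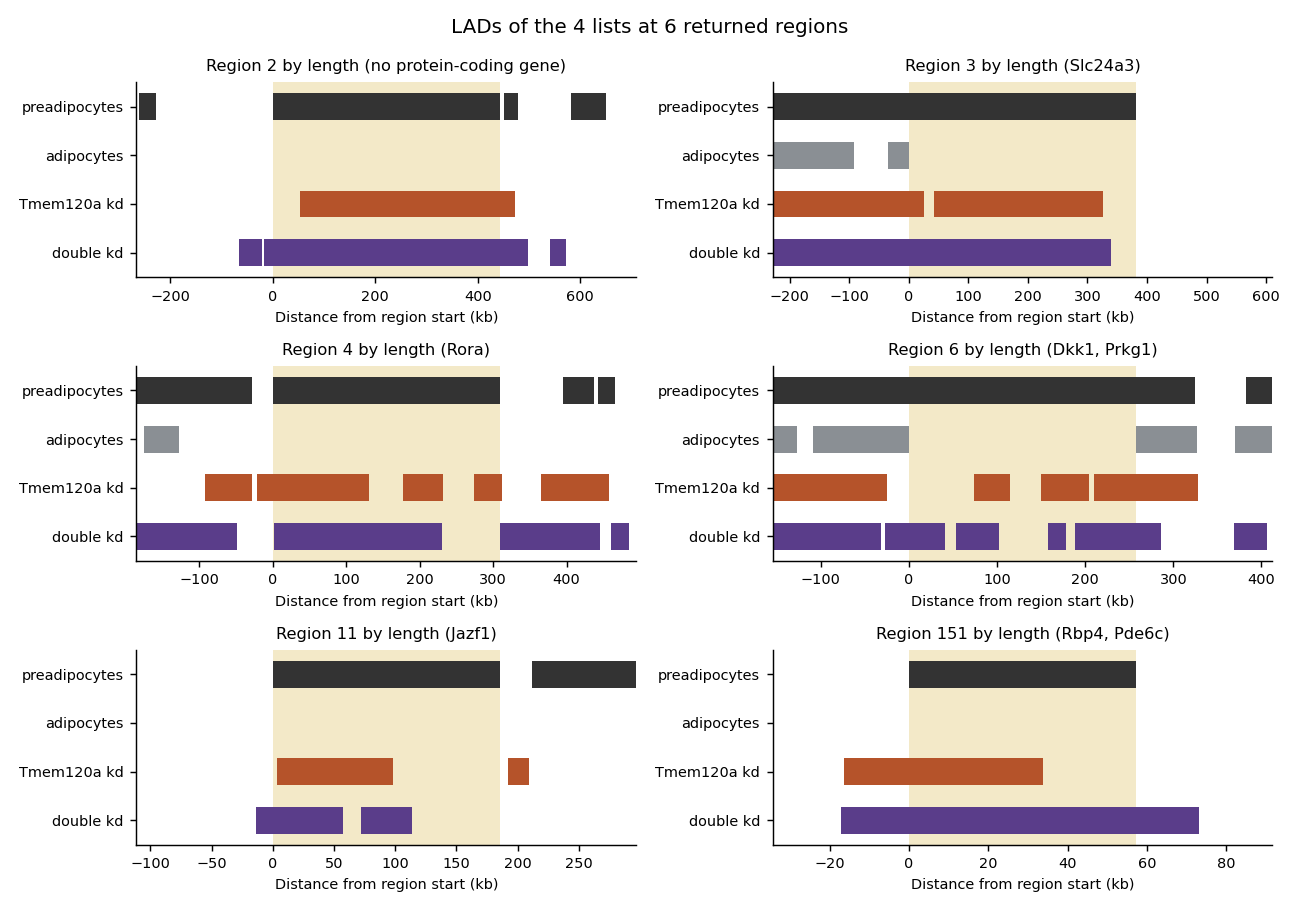
Horizontal bars mark LADs of the 4 lists around 6 returned regions (shaded), against the distance from the start of the region in kb. The regions of Slc24a3 and Rora and region 2 were largely covered in both knockdowns, the region of Dkk1 was covered in 3 and 4 pieces, and the Jazf1 region was covered on 1 side, with 50.8% of its length in the Tmem120a knockdown.

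This was examined at transcription starts. Returned regions held the starts of 171 protein-coding genes, and 137 of these (80.1%, 73.5 to 85.4) lay in LADs of the Tmem120a knockdown, where 81.6% of the returned length lay. In the double knockdown 135 starts (78.9%, 72.2 to 84.4) did, beside 84.4% of the length. In both lists at once 114 starts (66.7%, 59.3 to 73.3) did, beside 71.6% of the length. Both kinds of share come from the knockdown lists on which the regions were selected, and the 171 starts lay in 136 regions. They are therefore given as a description, with nothing inferred from how close they are. Outside LADs of both knockdowns lay 13 starts (7.60%, 4.50 to 12.6, beside 5.66% of the length). Besides Dkk1 and Vax1 these included Kcna2, the P450 gene Cyp2a12, the integrin gene Itga9 and Opalin, a myelin gene.

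Counting any overlap, returned regions met 316 protein-coding genes, which were 1.41% of the 22350 annotated. They were 24.5% of the 1288 genes (5.76% of all) met by any released region, close to the 24.1% of regions that returned. The gene lists below hold few members in returned regions, and each count is to be read against these shares. Their counts use the same rule of any overlap, so a gene said to lie in a returned region may have little of its body there.

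Of the 6 protein-coding genes the study names as released, 2 lay in returned regions. The study chose them on these samples, so they are no independent evidence. Jazf1 (ENSMUSG00000063568.5) is described above. Parm1, a mucin-like membrane protein (ENSMUSG00000034981.9, chr5:91946641-92055920), met a region of 19.6 kb (chr5:91954071-91973634) that was a whole preadipocyte LAD, 1344 kb from the nearest stable stretch. The region was held at 100% in the single and 97.7% in the double knockdown. The Parm1 body was 17.9% in LADs in preadipocytes, 0% in adipocytes, 27.5% in the single and 24.3% in the double knockdown, so both knockdowns exceeded the preadipocyte share. Fh1 and Pla2g12a met regions in the Tmem120a knockdown class only, Sema3c a region in the double knockdown class only, and Ak4 regions in the double knockdown class and in neither. The class belongs to the region and not to the gene. The Fh1 body was 100% in LADs in the single and 31.9% in the double knockdown. The Pla2g12a body was 22.1% in preadipocytes and 0% in each knockdown. From its signal traces the study describes a stronger change at Fh1 in the double knockdown, and much the same traces for Pla2g12a in both. The classes here differ from that description for both genes. They rest on called LADs without signal, and the source of the difference was not tested. Sema3c and Ak4 were 0% in the single knockdown, and 31.4% and 42.6% in the double knockdown.

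The lists of fat cell and metabolic genes had at most 1 member each in returned regions, too few to set them apart from the 1.41% over all protein-coding genes. Of 40 adipogenic transcription factors 1 met a returned region (2.50%), namely Rora, and 3 met a released region at all. Rora (ENSMUSG00000032238.10, chr9:68501593-69236053) met 4 returned regions, of 309, 99.7, 42.9 and 33.4 kb. Its body was 72.0% in LADs in preadipocytes, 6.46% in adipocytes, 54.6% in the single and 71.3% in the double knockdown. Of 81 lipid storage, lipogenesis and adipokine genes 1 did (1.23%), and 6 met a released region. This was Rbp4 (ENSMUSG00000024990.6, chr19:38191110-38199811), whose body was 100% in LADs in preadipocytes, 0% in adipocytes and 100% in each knockdown. Its region (chr19:38189437-38246674, 57.2 kb) was also a whole preadipocyte LAD and lay 59.2% in LADs of the Tmem120a knockdown and 100% in those of the double knockdown. None of the 22 tricarboxylic acid cycle genes did, although 2 met a released region.

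The signalling and matrix lists had 0 to 2 members in returned regions, too few to set them apart from the 1.41% over all genes. Of 62 Wnt pathway genes 2 lay in returned regions (3.23%), among 7 in released regions. These were Dkk1 and Lgr5, a receptor for R-spondins, of which 13.1% of the body lay in a returned region and the rest mostly in stable LAD, with 100%, 86.9%, 100% and 100% in LADs in preadipocytes, adipocytes, the Tmem120a knockdown and the double knockdown. None of 70 BMP and TGF-beta pathway genes did, although 8 met a released region. Of 29 semaphorins and plexins 1 did, Sema5a, an axon guidance cue, with 35.7% of its body in LADs in preadipocytes, 0% in adipocytes, 35.9% in the single and 14.2% in the double knockdown. None of 90 collagen, Adamts and Mmp genes, of 59 cadherins and protocadherins and of 40 Hox genes did, and these lists had 2, 3 and 2 genes in released regions.

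Potassium channels had the largest share of their members in returned regions among the lists other than the study's own genes, 6 of 94 (6.38%), out of 10 in released regions. Kcna1 (ENSMUSG00000047976.3), a voltage-gated channel of neurons, lay in a region of 59.4 kb held whole by each knockdown, and its body was 100% in LADs in preadipocytes, 0% in adipocytes and 100% in each knockdown. Kcna10 (ENSMUSG00000042861.7), of the same family, had the same 4 values. Kcna2 (ENSMUSG00000040724.1) lay in the same region of 164 kb on chromosome 3 as Kcna10, but was 100% in preadipocytes and 0% in each of the other lists. Kcna2 and Kcna10 share a region and are not separate examples. Kcnk2, a leak channel, had 100%, 0%, 72.0% and 85.1% of its body in LADs in preadipocytes, adipocytes, the Tmem120a knockdown and the double knockdown. Kcnk1, of the same kind, had 89.5%, 0%, 0% and 64.9% in that order. Kcnj6, an inward rectifier, lay largely in stable LAD, with 98.1%, 73.9%, 71.4% and 100%. The channel genes thus differed among themselves, from full contact in both knockdowns to none in either.

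Of 347 solute carrier genes 12 met returned regions (3.46%), out of 36 that met released regions. The transcription start lay in a returned region for 6 of the 12. The overlap was as small as 4.04% of the body for Slc35e3. Slc2a12, a glucose transporter, had 76.1% of its body in LADs in preadipocytes, 0% in adipocytes, 100% in the single and 91.9% in the double knockdown. Slc35d3 was 100% in LADs in all lists but that of adipocytes, where it was 0%. Slc22a8, an organic anion transporter, had 100%, 0%, 92.5% and 100% in preadipocytes, adipocytes, the Tmem120a knockdown and the double knockdown. Slc36a4, an amino acid transporter, had 91.1%, 12.8%, 100% and 100%. Slc15a2, which carries peptides, had 90.9%, 0%, 28.03% and 56.1%, so the double knockdown had the larger share and neither knockdown reached the preadipocyte level.

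Receptors of the immune and olfactory systems came in clusters. Of 154 interleukin, interferon and chemokine genes 3 lay in returned regions (1.95%), out of 12 in released regions. Ccr1 and Ccr1l1, chemokine receptors that share a region of 58.0 kb on chromosome 9, were each 100% in LADs in preadipocytes, 0% in adipocytes and 100% in both knockdowns. Of 1425 olfactory, vomeronasal and trace amine receptor genes 13 did (0.912%), out of 34. Olfr51, Olfr54, Olfr1377 and Olfr1378 lay in a whole preadipocyte LAD of 88.9 kb on chromosome 11 that each knockdown held at 100%. Olfr285 and Taar8c were 100% in LADs in preadipocytes and the Tmem120a knockdown and 0% in adipocytes and the double knockdown. Olfr1338 to Olfr1341 shared a region of 45.1 kb on chromosome 4, in which Olfr1341 was 100% in LADs of the Tmem120a and 0% of the double knockdown and Olfr1338 was 47.9% in adipocyte LADs. Olfr523 and Olfr524 shared a region of 29.5 kb on chromosome 7. Such genes share a region and count as 1 observation each.

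Of 368 zinc finger (Zfp) genes 6 lay in returned regions (1.63%), out of 24 in released regions. Zfp518a and Zfp931 were 100% in LADs in preadipocytes and both knockdowns and 0% in adipocytes. Zfp161 was 48.2% in LADs in preadipocytes and 0% in the other 3 lists. Of 71 muscle sarcomere and myogenic genes 2 did (2.82%), out of 5. Actn2, the alpha-actinin of the muscle Z-disc, had 82.4% of its body in LADs in preadipocytes, 0% in adipocytes, 38.3% in the single and 37.4% in the double knockdown. Sgcd, a sarcoglycan gene of 1093 kb, had 4.66% of its body in a returned region, and its shares in the 4 lists were 73.9%, 57.6%, 71.9% and 71.0%. RNA levels were not analysed here.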

How the data were processed

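The authors mapped reads to mm9 (BWA is named in the submitters' processing notes), computed a log2 LaminB1-Dam over Dam ratio per DpnI fragment and called LADs by segmentation with DNAcopy. The deposited lists hold start and end positions in bp, with no score, so read depth is unknown. Lists were matched to conditions by their abbreviations. Positions were read as counting from 1, because the deposited position was the T of GATC, where DpnI cuts. LAD borders lay at GATC for 97.8% of 7800 borders (preadipocytes) and 96.5% of 5066 (adipocytes). The shares were 98.6% of 11430 borders in the Tmem120a knockdown and 98.8% of 13910 in the double knockdown. The knockdown lists were thus cut into more LADs than the adipocyte list, although the study reports similar total shares of the genome in LADs. The part of this difference in the released set, the returned shares and the border counts was not tested.

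Overlaps were counted by bp in Python 3.11.15 with numpy 2.4.6, intervals with scipy 1.17.1 and figures with matplotlib 3.10.9. Genes came from GENCODE vM1, 22350 protein-coding genes on 20 chromosomes, and sequence from NCBIM37. Mature microRNA sequences came from the RefSeq table for GRCm38.p6, with 1 of 2 named microRNA genes matched. The overlap count was checked on simulated intervals (2000 of 2000 right) and the rule on a simulated knockdown list (2021 of 2021 right).

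The regions, gene lists and comparisons were chosen with earlier results of these data known. Regions named were the 10 longest, those next to the threshold and those holding named genes. Genes named were those the study names as released, those met by the 10 longest regions, and members of the fixed lists, largest share in a returned region first. Some items that these rules select are not reported here. The counts by flank and length, border sequences, promoters and runs of neighbours were chosen after values had been seen. With 1 library of each kind per condition, no test was run.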

Additional observations from a re-analysis of the deposited data

How the results depend on the processing

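The alternatives changed the overlap required, the LADs or regions entered and what counts as a gene met. The number of returned regions was 902 with any overlap in both lists, 243 with at least 80%, 163 with 100% and 299 among released regions of at least 30 kb. In the same order the median length was 46.1, 27.6, 22.2 and 57.3 kb, and the share touching a stretch in LADs of both preadipocytes and adipocytes was 67.4%, 81.9%, 85.9% and 62.9%. Protein-coding genes met numbered 674, 145 and 95 under the first 3 of these, 171 when only transcription starts in a region were counted and 98 when only whole genes were. Median G and C content was 41.9% with at least 80% and with 100%, and 43.0% for regions of at least 30 kb. A stricter overlap or a minimum length admits fewer regions and any overlap admits more by construction. The cause of the other changes was not tested. In the settings without LADs under 30 kb in the knockdown lists, with gaps under 20 kb closed there, and without chromosome X, the medians and the share stayed within their intervals and the counts within 1.5 times. No paired analysis was possible because each condition has 1 LaminB1-Dam and 1 Dam library. Depth cannot be read from positions, so weak contact below the calling limit of a list cannot be told from absence.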

Other observations

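Returned regions that lay near each other were examined after values had been seen, with neighbours joined where the gap was at most 200 kb. This gave 74 runs that held 183 of the 487 regions, and 304 regions stood alone. No matching count was made for the other released regions, so whether returned regions lie closer together than those was not tested. The median gap between neighbouring returned regions was 1468 kb. The longest run held 6 regions over 1145 kb of chromosome 10 (chr10:19856284-21001598) and met Map3k5, Mtap7, Pde7b and Ahi1. The body of Mtap7, a microtubule-associated protein, was 90.4% in LADs in preadipocytes, 0% in adipocytes, 95.4% in the single and 74.1% in the double knockdown. A run of 4 regions on the same chromosome (chr10:22209056-22733808) met Slc2a12 and Tcf21, a helix-loop-helix factor of mesenchymal cells. The Tcf21 body was 100% in LADs in preadipocytes, 0% in adipocytes and 100% in each knockdown.

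A run of 4 regions on chromosome 12 (chr12:105321026-105593684) covered part of the serpin cluster, whose genes encode inhibitors of serine proteases. Serpina5, Serpina3c, Serpina3f, Serpina3i and Serpina3k were each 100% in LADs in preadipocytes, 0% in adipocytes and 100% in both knockdowns. Serpina3a and Serpina3b were 56.3% and 6.55% in LADs in preadipocytes, 0% in adipocytes and 100% in both knockdowns. These genes lie side by side and were picked for their states, so they count as 1 observation. Other genes wholly in LADs in preadipocytes and both knockdowns and outside LADs in adipocytes, likewise picked after their values were seen, were Nkx2-1 and Olig3, which encode developmental transcription factors, and the neighbouring lysozyme genes Lyz1 and Lyz2. Pax6, an eye and brain factor, had 100%, 0%, 100% and 86.5% of its body in LADs in preadipocytes, adipocytes, the Tmem120a knockdown and the double knockdown. Foxd3, a neural crest factor, had 100% in preadipocytes and the Tmem120a knockdown and 0% in the other 2 lists.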
